A study of Mus musculus with 5 samples.

Results

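The nuclear genes of the mitochondrial respiratory chain and ATP synthase were measured in bone marrow RNA of Tet2 mutant and wild-type mice. The genes were found by symbol: those that begin with Nduf, Sdh, Uqcr, Cox4 to Cox8 or Atp5 and have the form of a subunit name, with 1 heart and muscle isoform left out by the rule. This gave 84 of the 55291 gene symbols, of which 37 fall to complex I by symbol, 4 to complex II, 8 to complex III, 18 to complex IV and 17 to complex V. Ndufa4 is counted with complex I by its symbol, although its protein is a subunit of complex IV. The rule reads only gene symbols, and it was written with earlier results of these data known.

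The samples were 2 Tet2 mutant libraries (replicates 2 and 3) and 3 wild-type libraries (replicates 1, 2 and 3), all from bone marrow and labelled "mononcytes", read here as monocytes. Titles of the mutant libraries carry the letters HR, which the labels do not explain and which may name the mutation. Tet2 encodes an enzyme that oxidises methylcytosine in DNA. Beyond these letters, the kind of Tet2 mutation, its zygosity, the cells that carry it, the strain and age of the mice and the isolation of the cells are not stated in the labels. Nothing in the labels says that the libraries came from separate animals, so each p-value measures the spread between these libraries, which may be technical.

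Complex I passes electrons from NADH to the carrier ubiquinone, complex II passes them there from succinate, complex III moves them on to cytochrome c and complex IV to oxygen. The proton gradient that complexes I, III and IV build drives ATP synthase, complex V, whose F1 head makes ATP. All of these except complex II also hold subunits encoded in the mitochondrial genome. Nuclear genes encode all of the other subunits, among them the small accessory subunits that surround the catalytic core.

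Gene counts summed to 17459808 and 60508381 in Tet2 mutant replicates 2 and 3, against 63910147, 72414875 and 53789308 in wild-type replicates 1, 2 and 3. Levels are given as CPM, the count per 1000000 counts, on library sizes adjusted by the TMM method. Tet2 itself stood at 5.31 and 15.6 CPM in the mutant libraries, against 11.9, 9.77 and 10.6 CPM in the wild type, so its level does not check the genotype labels. Monocyte markers summed to 2650 and 1702 CPM in the mutant libraries and to 1360 to 1477 CPM in the wild type. Neutrophil markers summed to 54322.5 and 23915 CPM in the mutant libraries and to 48625 to 60507 CPM in the wild type, so the libraries labelled as monocytes held more neutrophil than monocyte marker RNA. In such bulk RNA, fewer cells of a type and less RNA per cell cannot be told apart.

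Many small subunit genes were higher in the Tet2 mutant libraries, while several of the longest and most abundant subunit genes were not. Of the 81 members that passed the filter on low counts, 27 (33.3%) rose and 0 fell at an adjusted p under 0.05 in edgeR's quasi-likelihood test. Among all 17062 tested genes 10.6% rose and 4.43% fell. The median log2 fold change, mutant over wild type, was 0.92 over the members and -0.07 over all tested genes, and 72 of the 81 members lay above 0. At an unadjusted p under 0.05, 2 members lay lower in the mutant, Ndufs1 and Cox4i2, against 18.6% of all genes. DESeq2 and limma-voom called 0 members lower at an adjusted p under 0.05 (background 12.5% and 8.0%). Both mutant libraries exceeded every wild-type library for 57 members (background 22.9%), and both lay below every wild-type library for 3, Ndufs1, Sdha and Cox4i2 (background 33.3%). Cox4i2 had 1 count in each mutant library, a level not separable from 0. The excess of rises did not hold in 1 of 2 corrections for the trend of level with transcript length, described further on. Both were chosen after the data were seen. In that correction 2 members rose (2.47%, background 8.7%), and the members' median stood 0.36 above that of all genes. In the other, a robust fit, 46 rose (56.8%, background 17.1%), and the median stood 0.87 above. The robust fit left a Spearman correlation of fold change with length of -0.45 over the members, against -0.29 as reported.

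The libraries of 1 genotype also differed. Tet2 mutant replicate 2 stood above replicate 3 for 56 of the 81 members (69.1%), against 55.2% of all tested genes. Wild-type replicate 1 was the lowest wild-type library for 79 members (97.5%, against 37.4% of all genes) and the lowest of all 5 libraries for 68 (84.0%, against 15.8%). Without wild-type replicate 1, 5 members rose (6.17%, background 3.71%), namely Cox5a, Ndufa8, Ndufs3, Ndufv2 and Sdhb. Without wild-type replicates 2 and 3 in turn, 14 and 12 rose (background 5.27% and 5.52%). Without Tet2 mutant replicates 2 and 3 in turn, 36 and 52 rose (background 26.6% and 22.0%); these fits take the spread of the 1 mutant library left from the wild type.

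The calls also moved with the model and with the scaling of the libraries. With a block for replicate number, 1 member rose, Ndufa3 (1.23%, background 4.41%), and the members' median was 0.71. With upper-quartile scaling the median of all genes moved by -0.28 on the log2 scale, 17 members rose (background 8.32%) and 1, Ndufs1, fell (background 10.8%). With plain library totals it moved by -0.51, 8 members rose (9.88%, background 6.92%) and 2, Cox4i2 and Ndufs1, fell (background 16.9%). Of all called genes 70.5% were higher in the mutant as reported, 43.6% with upper-quartile scaling and 29.1% with plain totals. Relative to the median of all genes, the members' median stood 0.99 higher as reported, 0.94 higher with upper-quartile scaling and 0.96 higher with plain totals. Scaling shifts all genes by nearly the same amount, so this difference could hardly change and is no check of the calls. Over 15 alternatives, Ndufa3 kept its call under 14, Ndufa8, Ndufc1, Ndufs3 and Sdhb each under 13, and Cox7a2 under 6. Of the 27 calls, 13 were lost whichever wild-type library was left out, those of Atp5j2, Atp5k, Atp5o, Cox5b, Cox6a1, Cox7a2, Ndufa6, Ndufa9, Ndufa11, Ndufa13, Ndufb5, Ndufb6 and Ndufb8. Their fold changes stayed about as large. That of Atp5j2, for example, was 1.28 to 1.55 in those fits, against 1.34 as reported, and the members' median was 0.85 to 1.16, against 0.92.

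Summed over genes, complexes I and IV differed most between the genotypes. The complex I genes summed to 5332 and 4565 CPM in Tet2 mutant replicates 2 and 3, against 2139, 3072 and 2910 CPM in the wild type. The complex IV genes summed to 2436 and 1641 CPM in the mutant libraries, against 739, 1155 and 1101 CPM in the wild type. Both mutant libraries lay above all 3 wild-type libraries, and the differences of the mean log2 sums, mutant minus wild type, were 0.88 for complex I and 1.03 for complex IV (pooled SD of the log2 sums 0.25 and 0.37).

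The sums of the other complexes differed less. Complex II summed to 1660 and 1110 CPM in the mutant libraries, against 869, 1044 and 1017 CPM in the wild type (difference of log2 sums 0.48, pooled SD 0.26). Complex III summed to 2109 and 1742 CPM, against 1137, 1539 and 1508 CPM (difference 0.47, pooled SD 0.23). Mutant and wild-type libraries did not overlap for either complex. Complex V summed to 5732 and 4345 CPM in the mutant libraries, against 3239, 4471 and 4450 CPM in the wild type (difference 0.32, pooled SD 0.27), and Tet2 mutant replicate 3 lay within the wild-type range. With plain library totals the differences turned negative for complex II (-0.042), complex III (-0.0494) and complex V (-0.206), and stayed positive for complex I (0.36) and complex IV (0.51). No p is given for these sums.

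**Figure D1:**
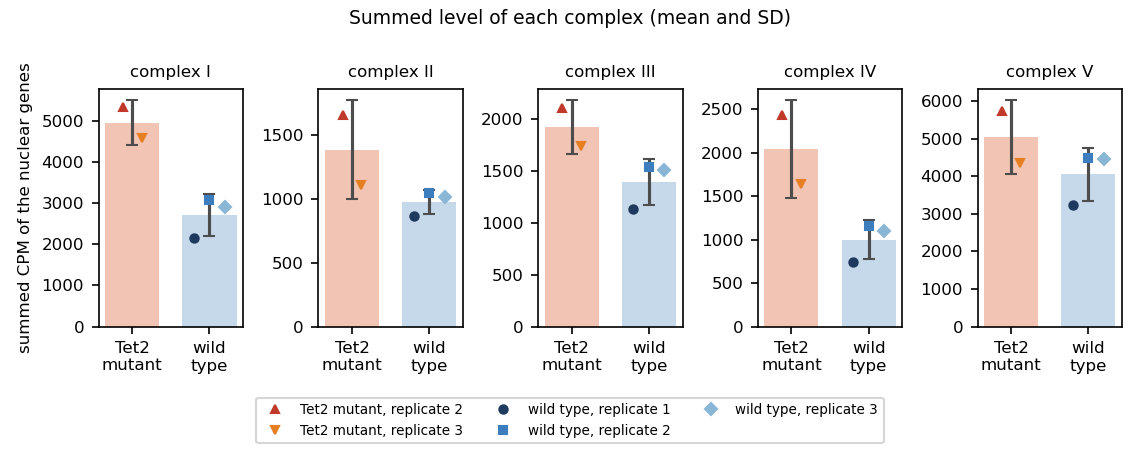
Summed CPM of the members of each complex. Bars are genotype means, error bars the SD (n = 2 Tet2 mutant, n = 3 wild type) and points single libraries, each panel with its own axis from 0. The mutant points of complexes I and IV lie at 5332 and 4565 and at 2436 and 1641 CPM, above all wild-type points, while those of complex V overlap the wild type.

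Complex I held most of the rises, 16 of its 37 genes (43.2%, against 10.6% of all tested genes), with a median log2 fold change of 0.99. All 30 accessory genes lay above 0, and 12 of them rose. The 7 nuclear core subunits, which carry the electrons, were divided, and 4 of them rose. By symbol, 7 of 14 Ndufa genes, 4 of 10 Ndufb genes, 1 of 2 Ndufc genes, 3 of 8 Ndufs genes and 1 of 3 Ndufv genes rose.

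In the quinone-binding module 3 core genes rose. Ndufs3, a subunit of that module (GRCm38, chromosome 2, 90894634 to 90904827, minus strand), stood at 157 and 102 CPM in the mutant libraries, against 33.8, 44.5 and 47.0 CPM in the wild type. Each mutant value was more than 2 times any wild-type value, and the log2 fold change was 1.63 ± 0.30 (SE, adjusted p = 0.0182). Ndufs7 and Ndufs8, iron-sulfur subunits of the same module, stood at 262 and 217 CPM and at 213 and 325 CPM in the mutant libraries, against 79.3, 118 and 109 CPM and 81.6, 107 and 98.4 CPM in the wild type. Their libraries did not overlap between genotypes, with log2 fold changes of 1.23 ± 0.26 (adjusted p = 0.0300) and 1.49 ± 0.27 (adjusted p = 0.0185).

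The NADH-oxidising module split 3 ways. Ndufv2, an iron-sulfur subunit beside the NADH site, stood at 407 and 329 CPM in the mutant libraries, against 123, 176 and 168 CPM in the wild type (log2 fold change 1.25 ± 0.26, adjusted p = 0.0281). Ndufv1, which carries the flavin that takes electrons from NADH, stood at 262 and 144 CPM, against 186, 268 and 274 CPM (log2 fold change -0.26 ± 0.33, adjusted p = 0.582). Ndufs1, the large iron-sulfur subunit (chromosome 1, 63143596 to 63176833, minus strand), stood at 113 and 73.2 CPM, against 143, 172 and 178 CPM. Ndufs1 was thus lower in both mutant libraries than in every wild-type library, yet did not pass as reported (log2 fold change -0.82 ± 0.28, adjusted p = 0.0826). It fell with upper-quartile scaling (adjusted p = 0.0249) and with plain totals (adjusted p = 0.0168), and also when Tet2 mutant replicate 2 was left out (adjusted p = 0.00846). Over its alternatives the adjusted p reached 0.306. Its exons overlap those of Eef1b2 on the opposite strand, and no source used here gives the strand setting of the counts.

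Among the accessory genes, the highest fold change was that of Ndufa3 (chromosome 7, 3617373 to 3620327, plus strand), at 221 and 95.1 CPM in the mutant libraries, against 26.4, 43.3 and 38.1 CPM in the wild type. Its log2 fold change was 2.14 ± 0.40 (adjusted p = 0.0203), with Tet2 mutant replicate 2 more than 2 times replicate 3, and its exons overlap those of Tfpt on the other strand. Ndufc1 (chromosome 3, 51404677 to 51408988, minus strand) stood at 90.2 and 73.4 CPM, against 18.3, 30.5 and 24.7 CPM (log2 fold change 1.74 ± 0.32, adjusted p = 0.0188). The mutant libraries agreed more closely for this gene and for Ndufa7 and Ndufa8. Ndufa7 stood at 108 and 116 CPM, against 35.1, 46.6 and 44.0 CPM (log2 fold change 1.42 ± 0.26, adjusted p = 0.0178). Ndufa8 stood at 264 and 208 CPM, against 77.9, 105 and 97.7 CPM (log2 fold change 1.34 ± 0.25, adjusted p = 0.0202). The other 8 accessory genes that rose, Ndufa6, Ndufa9, Ndufa11, Ndufa13, Ndufb5, Ndufb6, Ndufb7 and Ndufb8, had log2 fold changes of 0.92 to 1.45 (adjusted p = 0.0342 to 0.0495). The 18 that did not pass ranged from 0.17 to 1.54 (adjusted p = 0.0534 to 0.725).

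**Figure D2:**
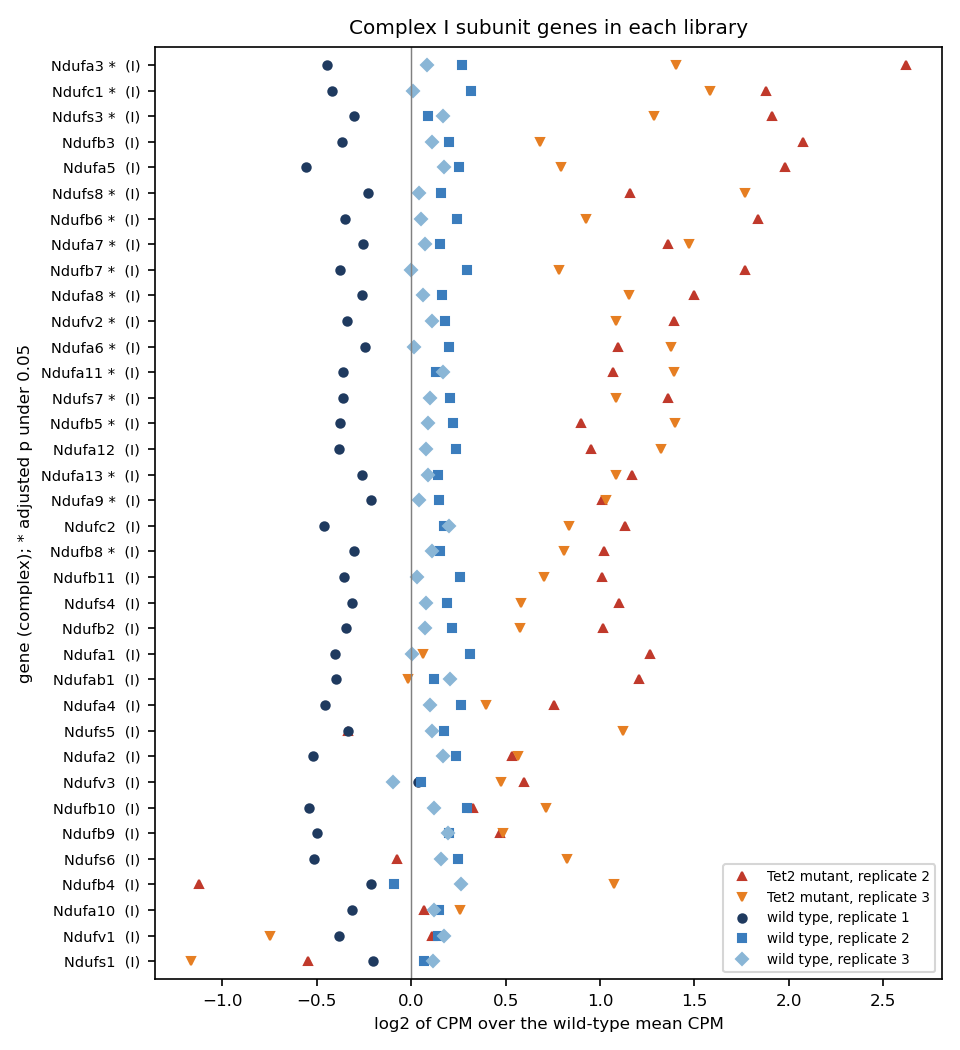
Level of each complex I gene in each library as log2 of CPM over the wild-type mean CPM, ordered by fold change; triangles are Tet2 mutant libraries, other symbols wild-type libraries, and an asterisk marks an adjusted p under 0.05. Ndufa3 stands at the top and Ndufs1 at the bottom, and the dark circles of wild-type replicate 1 lie leftmost of the wild type in all drawn genes but 1; 1 gene of the complex is not drawn.

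Complex II, which is also an enzyme of the tricarboxylic acid cycle, changed in 1 of its 4 subunits, too few to read against the 10.6% of all genes that rose. Sdhb, the iron-sulfur subunit (chromosome 4, 140961203 to 140979193, plus strand), stood at 535 and 344 CPM in the mutant libraries, against 146, 179 and 167 CPM in the wild type. Both mutant libraries were clear of the wild type, and the log2 fold change was 1.42 ± 0.27 (adjusted p = 0.0209). Sdha, the flavoprotein that oxidises succinate (chromosome 13, 74322254 to 74350280, minus strand), stood at 322.0 and 329.6 CPM, against 330.1, 356 and 354 CPM (log2 fold change -0.09 ± 0.22, adjusted p = 0.777). The 2 mutant values of Sdha lay just under the lowest wild-type value.

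The membrane anchors of complex II did not pass. Sdhc stood at 133 and 63.2 CPM in the mutant libraries, against 97.6, 123 and 112 CPM in the wild type (log2 fold change -0.17 ± 0.35, adjusted p = 0.727). Sdhd stood at 669 and 373 CPM, against 295, 385 and 384 CPM (log2 fold change 0.55 ± 0.31, adjusted p = 0.217), and its log2 fold change was -0.0014 with plain totals. For both anchors Tet2 mutant replicate 2 was the highest of the 5 libraries, while replicate 3 was the lowest for Sdhc and within the wild-type range for Sdhd.

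Complex III had 1 rise among 8 genes (12.5%), close to the 10.6% of all genes, and a median log2 fold change of 0.81. Uqcr10, a small accessory subunit (chromosome 11, 4701973 to 4704342, minus strand), stood at 193 and 101 CPM in the mutant libraries, against 41.3, 61.1 and 59.3 CPM in the wild type (log2 fold change 1.45 ± 0.35, adjusted p = 0.0384). The other 4 accessory genes, Uqcr11, Uqcrb, Uqcrh and Uqcrq, had log2 fold changes of 0.71 to 0.97 and did not pass (adjusted p = 0.0670 to 0.135).

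None of the larger complex III subunits among the members passed. Cyc1, cytochrome c1 of the same complex, falls outside the symbol rule and so outside the sums and shares of complex III. It stood at 208 and 280 CPM in the mutant libraries, against 214, 275 and 277 CPM in the wild type (log2 fold change -0.07 ± 0.26, adjusted p = 0.864). Uqcrfs1, the Rieske iron-sulfur protein, stood at 316 and 268 CPM in the mutant libraries, against 137 to 218 CPM in the wild type (log2 fold change 0.67 ± 0.27, adjusted p = 0.116). Uqcrc2, a core protein on the matrix side, stood at 235 and 299 CPM, against 153, 178 and 189 CPM (log2 fold change 0.63 ± 0.24, adjusted p = 0.105). Both genes were higher in each mutant library than in any wild-type library. Uqcrc1, the other core protein, stood at 853 and 732 CPM, against 638, 808 and 810.4 CPM (log2 fold change 0.08 ± 0.25, adjusted p = 0.838), and its sign turned with upper-quartile scaling (-0.22) and plain totals (-0.45). Uqcrc1 made up 41.2% of the complex III sum in the mutant libraries and 53.9% in the wild type, from the group means.

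Complex IV had 5 rises among 15 tested genes (33.3%, background 10.6%) and a median log2 fold change of 1.02. Cox5a, a subunit on the matrix side (chromosome 9, 57521274 to 57532426, plus strand), stood at 314 and 212 CPM in the mutant libraries, against 63.7, 109.6 and 115 CPM in the wild type. Its groups did not overlap, with a log2 fold change of 1.45 ± 0.33 (adjusted p = 0.0351). Cox5b, which binds zinc, stood at 168 and 107 CPM, against 48.9, 69.2 and 66.5 CPM (log2 fold change 1.16 ± 0.30, adjusted p = 0.0438). Cox6a1, an accessory subunit, stood at 349 and 235 CPM, against 97.8, 147 and 143 CPM (log2 fold change 1.18 ± 0.29, adjusted p = 0.0421).

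Cox7a2 and its relative Cox7a2l differed in which mutant library was higher. Cox7a2, an accessory subunit, reached 266 and 85.7 CPM in mutant replicates 2 and 3, against 43.6, 61.7 and 58.6 CPM in the wild type (log2 fold change 1.69 ± 0.45, adjusted p = 0.0487). Cox7a2l, which is not a plain subunit but a factor of respiratory supercomplexes (chromosome 17, 83501918 to 83517330, minus strand), stood at 97.7 and 148 CPM, against 37.4, 56.0 and 47.1 CPM (log2 fold change 1.39 ± 0.30, adjusted p = 0.0309). Cox7a2 lost its call without Tet2 mutant replicate 2, with a log2 fold change of 0.65 (adjusted p = 0.0640). Cox4i1, the ubiquitous form of subunit 4 and the most abundant gene of complex IV, stood at 519 and 362 CPM, against 203, 351 and 328 CPM, and did not pass (log2 fold change 0.58 ± 0.32, adjusted p = 0.206). The other 6 tested genes, Cox6b1, Cox6c, Cox6c2, Cox7b, Cox7c and Cox8a, ranged from 0.34 to 1.20 (adjusted p = 0.0506 to 0.785), and Cox6c2 is annotated as a pseudogene.

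The tissue-restricted forms of complex IV subunits were low or absent, with 1 exception. Cox4i2, the lung form of subunit 4, stood at 0.0792 and 0.0185 CPM in the mutant libraries, which is 1 count in each, against 0.201, 0.298 and 0.277 CPM in the wild type (adjusted p = 0.0817). Cox7a1, the heart and muscle form of subunit 7a, stood at 0 and 0.185 CPM, against 0.241, 0.203 and 0.114 CPM (adjusted p = 0.657). Cox7b2, Cox8b and Cox8c were not tested, with 0 counts in every library except 2 counts of Cox8b in wild-type replicate 1. A level of 3 counts, taken as the limit that a count of 0 allows, was 0.238 and 0.0554 CPM in the mutant libraries, against 0.0402, 0.0358 and 0.049 CPM in the wild type.

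Cox6b2, known as the testis form of subunit 6b (chromosome 7, 4751792 to 4753094, minus strand), was the exception. Its level was 51.3 CPM in mutant replicate 2 but 1.33 CPM in mutant replicate 3, against 10.6, 16.3 and 20.6 CPM in the wild type. The mutant libraries thus lay on opposite sides of all 3 wild-type libraries, and the log2 fold change was 0.73 ± 1.11 (adjusted p = 0.643). With mutant replicate 3 left out it was 1.70 (adjusted p = 0.0130), and with mutant replicate 2 left out it was -3.57 (adjusted p = 0.00260).

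Complex V had 4 rises among 17 genes (23.5%, background 10.6%), all of them in its peripheral stalk and membrane parts. The F1 head held no rise among 5 genes (15.0% of all tested genes were called in either direction; 2 of the 5 lay higher at an unadjusted p under 0.05). Atp5b, F1 subunit beta with the catalytic sites (chromosome 10, 128083273 to 128090391, plus strand), stood at 1519 and 1338 CPM in the mutant libraries, against 1247, 1635 and 1720 CPM in the wild type (log2 fold change -0.10 ± 0.27, adjusted p = 0.790). Atp5a1, subunit alpha (chromosome 18, 77773729 to 77782869, plus strand), stood at 1231 and 819.8 CPM, against 845, 1204 and 1156 CPM (log2 fold change -0.06 ± 0.30, adjusted p = 0.896). The mutant values of Atp5b lay within the wild-type range, and those of Atp5a1 lay on opposite sides of it.

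The smaller F1 subunits lay higher without passing. Atp5c1, the rotating stalk, stood at 466 and 444 CPM in the mutant libraries, against 237, 301 and 286 CPM in the wild type (log2 fold change 0.73 ± 0.23, adjusted p = 0.0701). Atp5d stood at 199 and 219.5 CPM, against 99.2, 137 and 144 CPM (log2 fold change 0.72 ± 0.26, adjusted p = 0.0873). Atp5e stood at 60.9 and 81.2 CPM, against 35.4, 54.2 and 52.3 CPM (log2 fold change 0.59 ± 0.31, adjusted p = 0.194). In each of these genes both mutant libraries exceeded the wild type.

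Of the 4 genes of the peripheral stalk, which holds the head still, 2 rose. Atp5j, subunit F6, stood at 259 and 266 CPM in the mutant libraries, against 92.7, 129.6 and 115 CPM in the wild type (log2 fold change 1.22 ± 0.24, adjusted p = 0.0239). Atp5o, the subunit that joins the stalk to the head, stood at 268 and 224 CPM, against 106 to 142 CPM (log2 fold change 0.95 ± 0.25, adjusted p = 0.0449). Each lay clear of the wild type in both mutant libraries. Exons of Atp5j overlap those of Gabpa on the opposite strand.

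Of the 5 small membrane subunits, 2 rose. Atp5k, subunit e (chromosome 5, 108433244 to 108434448, minus strand), stood at 68.5 and 39.8 CPM in the mutant libraries, against 12.6, 17.6 and 16.8 CPM in the wild type (log2 fold change 1.79 ± 0.37, adjusted p = 0.0265). Atp5j2, subunit f, stood at 175 and 93.7 CPM, against 40.5, 60.0 and 59.2 CPM (log2 fold change 1.34 ± 0.34, adjusted p = 0.0441). The groups did not overlap for either gene.

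The extremes of complex V differed more between the mutant libraries than between the genotypes. Atp5md, another membrane subunit, had the highest log2 fold change of complex V, 1.86 ± 0.58, yet did not pass (adjusted p = 0.0674), with 109.8 and 24.6 CPM in mutant replicates 2 and 3, against 14.1, 20.7 and 20.8 CPM in the wild type. Atp5mpl had the lowest, -0.12 ± 0.52 (adjusted p = 0.874), at 12.2 and 37.9 CPM, against 20.5, 32.1 and 29.6 CPM. Tet2 mutant replicate 2 was thus the highest library for Atp5md and the lowest for Atp5mpl. The other 3 genes of complex V, Atp5h, Atp5l and Atp5pb, ranged from 0.42 to 0.95 (adjusted p = 0.175 to 0.271).

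Subunit c, which forms the rotor ring in the membrane, comes from 3 genes that encode the same mature protein. Together they summed to 544 and 270 CPM in Tet2 mutant replicates 2 and 3, against 157, 260 and 252 CPM in the wild type. Atp5g3 gave most of it, 65.6% and 71.7% in the mutant libraries, against 71.8%, 75.2% and 74.7% in the wild type. Atp5g1 gave 30.2% and 26.7%, against 26.2%, 22.9% and 23.2%. Shares of Atp5g3 were thus a little lower, and those of Atp5g1 a little higher, in both mutant libraries than in every wild-type library. Atp5g2 gave 4.15% and 1.64%, against 1.87% to 2.03%. None of the 3 genes passed, with log2 fold changes of 1.15 ± 0.39, 1.62 ± 0.74 and 0.73 ± 0.36 for Atp5g1, Atp5g2 and Atp5g3 (adjusted p = 0.0772, 0.149 and 0.169).

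The make-up of the complex V transcripts therefore differed between the genotypes more than their sum. Atp5a1 and Atp5b together were 48.0% and 49.7% of the complex V counts in the mutant libraries, against 64.6%, 63.5% and 64.6% in the wild type. Without these 2 genes, complex V summed to 2981 and 2187 CPM in the mutant libraries, against 1147, 1633 and 1574 CPM in the wild type, with no overlap. Shares within a complex do not depend on how the libraries were scaled. Atp5a1 and Atp5b are also long, at 2572.5 and 1916 nt, against a median of 742 nt for complex V. The part of the trend with transcript length, described below, in these shares was not tested. No test was made of the share of Atp5a1 and Atp5b, which was chosen after the values were seen.

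**Figure D3:**
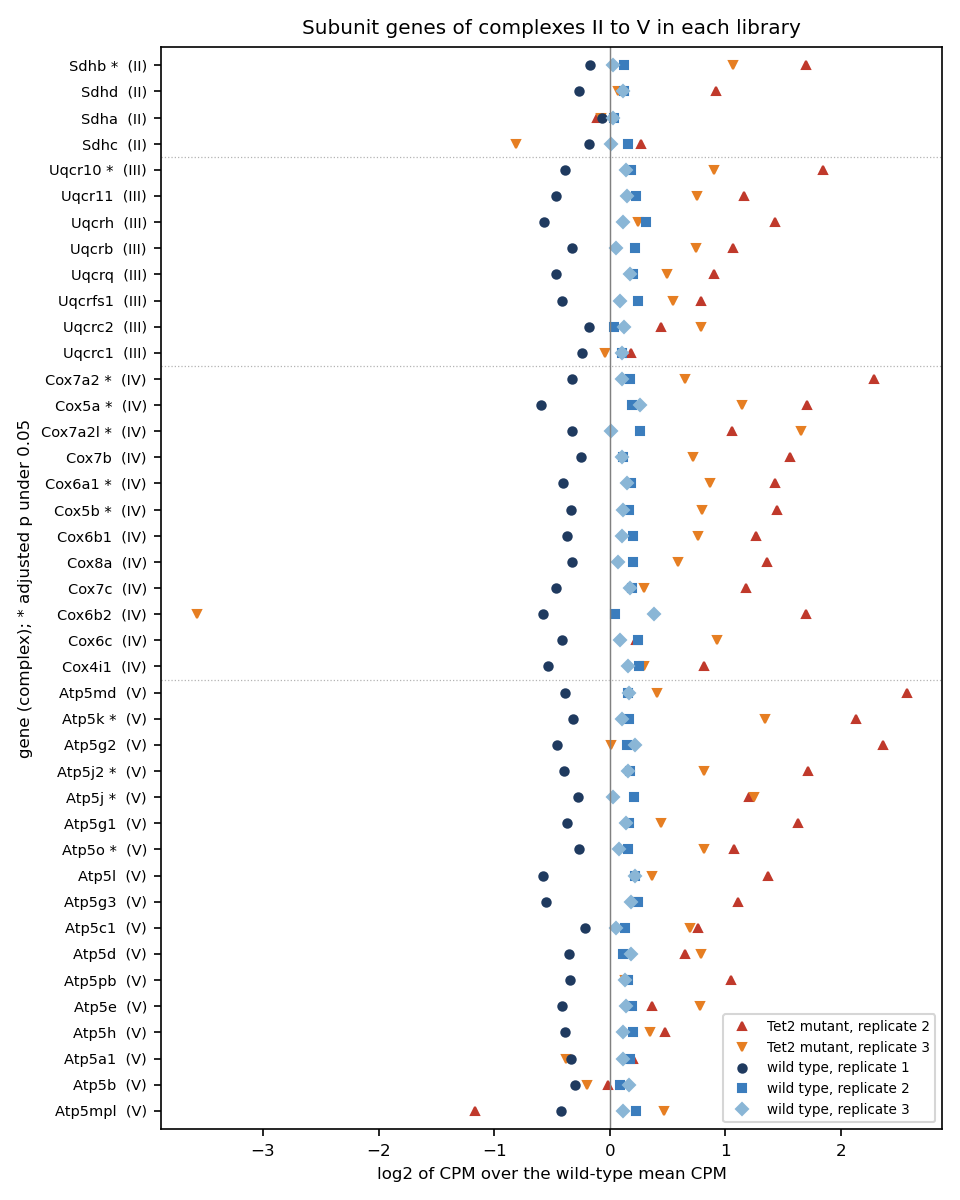
Level of each gene of complexes II to V in each library as log2 of CPM over the wild-type mean CPM, ordered by fold change within a complex; triangles are Tet2 mutant libraries, other symbols wild-type libraries, an asterisk marks an adjusted p under 0.05, and 3 complex IV genes below 1 CPM in the wild type are not drawn. Sdhb stands apart from the rest of complex II, Cox6b2 has its mutant libraries on opposite sides of the wild type, and Atp5a1 and Atp5b lie near 0.

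Levels between genes were compared per 1000 nt of transcript. On that scale Atp5b was the most abundant member in both genotypes, with a mean of 745 CPM per 1000 nt in the mutant libraries and 801 in the wild type. Cox4i1 led complex IV at 583 in the mutant libraries and 390 in the wild type, Uqcrc1 complex III at 479 in the mutant libraries and 455 in the wild type, and Sdhd complex II at 423 in the mutant libraries and 288 in the wild type. Among the genes counted with complex I by symbol, Ndufb7 led in the mutant libraries (413) and Ndufa4, a subunit of complex IV, in the wild type (238). The median level of all members on this scale was 169 in the mutant libraries and 83.2 in the wild type. Across the 81 genes the order of the levels was much alike in the genotypes (Spearman's rho 0.898, a description across genes that share libraries and lengths). Within complexes I and III it was 0.857 and 0.738.

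Members with short transcripts had higher fold changes than members with long ones, and the same order held over all genes. Lengths are medians of the basic protein-coding transcripts of a gene in GENCODE M21. The pseudogene Cox6c2 was left out of the classes and correlations below. The median log2 fold change was 0.97 over the 29 members under 600 nt, 1.15 over the 25 members of 600 to 999 nt, 0.73 over the 19 members of 1000 to 1999 nt and 0.17 over the 7 members of 2000 to 3999 nt. For other protein-coding genes it was 0.51, 0.81, 0.45 and -0.12 in the same classes and -0.29 at 4000 nt or more. The share that rose was 27.6%, 48.0%, 36.8% and 0% of the members, against 16.9%, 27.9%, 19.2% and 8.26% of the other genes. Across the 80 tested members without Cox6c2, the fold change and the log2 of length had a Pearson correlation of -0.32 (Spearman -0.29). Across all 13492 tested protein-coding genes it was -0.14 (Spearman -0.20). These are descriptions across genes, which share the same 5 libraries.

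**Figure D4:**
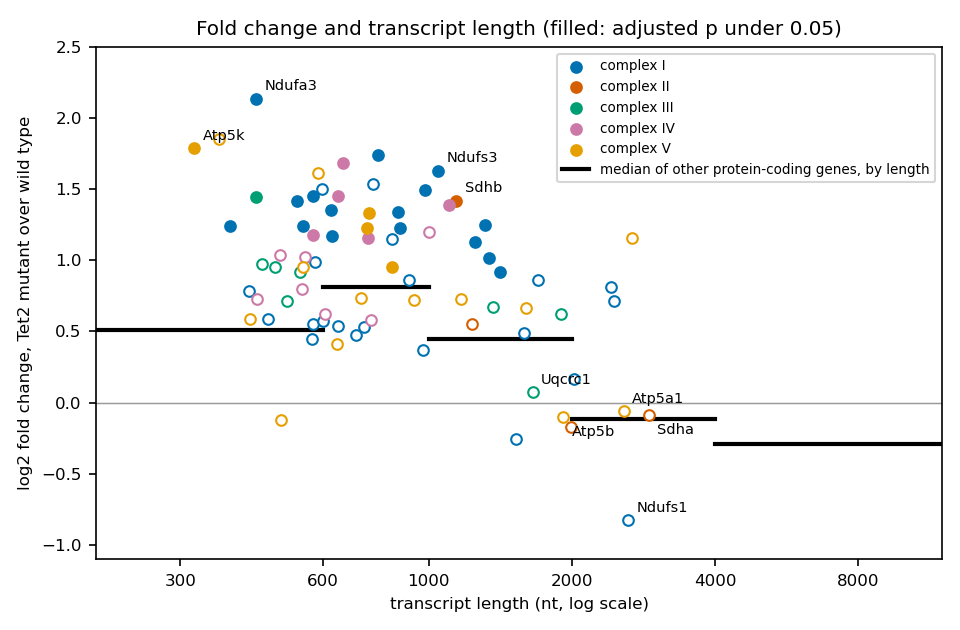
Log2 fold change, Tet2 mutant over wild type, of each member against its transcript length in nt on a log axis, coloured by complex and filled where the adjusted p was under 0.05; black lines are the medians of the other protein-coding genes in 5 length classes, from 0.51 under 600 nt to -0.29 at 4000 nt or more. Ndufs1, Sdha, Atp5a1 and Atp5b lie at or below 0 on the right, and Ndufa3 and Atp5k at the upper left; the 3 complex IV genes below 1 CPM in the wild type are not drawn.

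Core subunits and the others differ in length too. The 22 subunits taken here as core had a median length of 1272 nt and a median log2 fold change of 0.61. Of them 7 rose (31.8%, against 10.6% of all tested genes). They include Cox4i1, Cox5a and Cox5b of complex IV, of which 2 rose, although the catalytic core of that complex is encoded in the mitochondrial genome. The 54 subunits that are not core had a median length of 615 nt and a median of 0.98, and 19 rose (35.2%). Role and length thus go together among the members and cannot be told apart here.

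When the trend of level with length was removed from each library, the 2 members that rose were Ndufa3 and Ndufc1. Their log2 fold changes were then 1.41 (adjusted p = 0.0466) and 1.05 (adjusted p = 0.0494). The members' median was 0.28, with 57 of 81 above 0, and that of all genes -0.08. The differences of the log2 sums became 0.31 for complex I, 0.17 for complex II, 0.04 for complex III, 0.29 for complex IV and 0.04 for complex V. Ndufs3, at 0.97 (adjusted p = 0.0719), Sdhb, at 0.80 (adjusted p = 0.0983), and Atp5k, at 1.06 (adjusted p = 0.0614), no longer passed. With the robust length fit, the correction tried before this one, 46 members rose (56.8%, background 17.1%), and the members' median was 1.15. That fit did not remove the trend among the members, whose Spearman correlation of fold change with length was then -0.45. The source of the trend was not tested.

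Single libraries of 1 genotype showed the trend as well. Against the wild-type mean, the other protein-coding genes under 600 nt had a median log2 level of -0.18 in wild-type replicate 1, 0.13 in replicate 2 and 0.04 in replicate 3, and those of 4000 nt or more 0.16, -0.11 and -0.07. In the mutant libraries the medians were 0.50 and 0.70 at 600 to 999 nt, and -0.56 and -0.47 at 4000 nt or more. Members under 600 nt stood higher than other genes of that length in both mutant libraries, at 1.26 in replicate 2 and 0.75 in replicate 3, against -0.05 and 0.29 for the other genes. Members of 2000 to 3999 nt had medians of 0.20 and -0.02 in the mutant libraries, against -0.30 and -0.29 for the other genes.

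**Figure D5:**
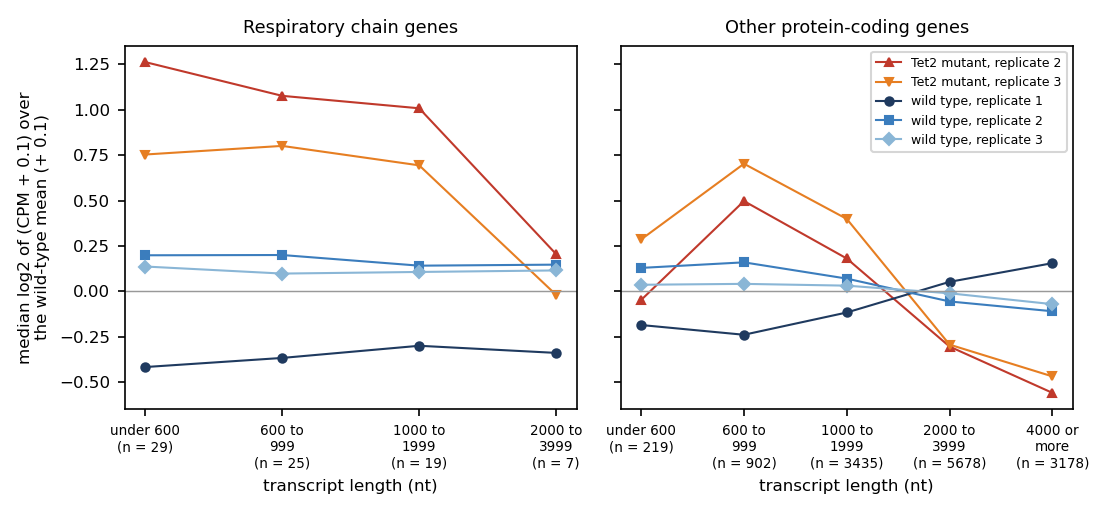
Median over genes of the log2 of CPM plus 0.1 over the wild-type mean plus 0.1, by class of transcript length in nt, for the members (left) and the other protein-coding genes (right), with 1 line per library. In the right panel both mutant lines fall from the class of 600 to 999 nt on, to -0.56 and -0.47 at 4000 nt or more, while that of wild-type replicate 1 climbs to 0.16; in the left panel both mutant lines lie above all wild-type lines in the classes under 2000 nt.

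Other genes of the respiratory chain were counted in lists, to be read beside the 10.6% of all tested genes that rose. The 47 tested assembly factors, which build the complexes, had 12 rises (25.5%) and 1 fall and a median log2 fold change of 0.48. Sdhaf1, which helps insert iron-sulfur clusters into Sdhb, stood at 66.2 and 26.3 CPM in the mutant libraries, against 4.60, 6.70 and 6.09 CPM in the wild type (log2 fold change 2.99 ± 0.48, adjusted p = 0.0122). Nubpl, an iron-sulfur factor of complex I, stood at 26.2 and 27.0 CPM, against 4.61, 5.97 and 5.97 CPM (log2 fold change 2.27 ± 0.41, adjusted p = 0.0171). Cox19, a copper factor of complex IV, stood at 116 and 74.4 CPM, against 23.1, 27.3 and 27.8 CPM (log2 fold change 1.87 ± 0.30, adjusted p = 0.0126). These 3 genes lay well clear of the wild type in both mutant libraries.

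The list of electron carriers and quinone-linked enzymes had 3 rises among 20 genes (15.0%) and a median of 0.45. Coq8a, a kinase-like protein of ubiquinone synthesis, had a log2 fold change of 2.98 ± 0.37 (adjusted p = 0.00486), Coq3, a methyltransferase of that pathway, 1.74 ± 0.40 (adjusted p = 0.0361) and Cycs, cytochrome c, 1.30 ± 0.32 (adjusted p = 0.0421). None of the 20 fell, but 7 lay below 0. At an unadjusted p under 0.05, 1 lay lower, Pdss1, also of ubiquinone synthesis (log2 fold change -1.53 ± 0.43, adjusted p = 0.0537). Of the tricarboxylic acid cycle 3 of 14 genes (21.4%) rose and 0 fell (1 lay lower at an unadjusted p under 0.05), with a median of 0.15. Its rises were Suclg1 (1.25 ± 0.22, adjusted p = 0.0167), Mdh2 (0.96 ± 0.24, adjusted p = 0.0431) and Idh3g (0.84 ± 0.22, adjusted p = 0.0476). Among 22 genes of import, shape and outer membrane 2 rose (9.09%, under the share of all genes), Timm17a (1.70 ± 0.31, adjusted p = 0.0179) and Vdac2 (1.17 ± 0.24, adjusted p = 0.0269), and the median was 0.18.

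No regulator of mitochondrial biogenesis passed. Of 14 genes 0 were called in either direction by edgeR, against 15.0% of all tested genes, and 14 genes are too few to read against that share. At an unadjusted p under 0.05, 1 lay higher and 1 lower, against 3503 and 3182 of all 17062 tested genes. The median log2 fold change of the list was -0.39. Tfam, which packages mitochondrial DNA and acts in its transcription, stood at 81.4 and 65.9 CPM in the mutant libraries, against 31.8, 43.1 and 41.6 CPM in the wild type (log2 fold change 0.92 ± 0.29, adjusted p = 0.0658). Ppargc1a, a coactivator of respiratory genes, was listed at 0 in both mutant libraries, against 0.429, 0.369 and 0.049 CPM in the wild type (adjusted p = 0.0754). Of these values that of wild-type replicate 3 is 3 counts, the limit that a count of 0 allows, and the other 2 lie above their limits. This list had a median transcript length of 3088 nt, against 732 nt for the members.

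Of the 13 subunits encoded in the mitochondrial genome 7 were tested, all of them above 0, and 2 rose (28.6%). The tested genes had a median log2 fold change of 0.65. mt-Nd2 stood at 142 and 115 CPM in the mutant libraries, against 30.9, 48.6 and 40.2 CPM in the wild type (log2 fold change 1.69 ± 0.29, adjusted p = 0.0149), and mt-Cytb at 897 and 1119 CPM, against 321, 474 and 404 CPM (log2 fold change 1.33 ± 0.27, adjusted p = 0.0249). mt-Nd3, mt-Nd4l, mt-Co2 and mt-Atp8 were listed at 0 in every library, and mt-Co3 and mt-Atp6 had a count in 1 library each, although every respiring cell uses these genes. The mitochondrial genes held 0.257% and 0.360% of the counts in the mutant libraries, against 0.196%, 0.313% and 0.241% in the wild type.

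Markers of other cells differed between the genotypes too; their counts stand beside the 10.6% of all genes that rose. All 8 macrophage markers rose, and summed to 8307 and 7398 CPM in the mutant libraries, against 548 to 690 CPM in the wild type. T and NK cell markers (4 of 9 rose) summed to 1226 and 1043 CPM, against 243 to 325 CPM, and dendritic cell markers (4 of 7 rose) to 628 and 704 CPM, against 70.6 to 96.3 CPM. The dendritic cell list did not move as one. Its marker Siglech stood at 8.64 and 1.16 CPM in the mutant libraries, below every wild-type library (log2 fold change -2.61, adjusted p = 0.0673). Siglech was the 1 dendritic cell marker lower at an unadjusted p under 0.05, against 6 higher. Cd209a gave 529 of the 704 CPM in Tet2 mutant replicate 3. Pancreatic acinar markers (8 of 8 rose) summed to 536 and 1289 CPM, against 39.7 to 55.5 CPM. The sums of all 4 lists lay clear of the wild type in both mutant libraries.

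B cell markers (3 of 9 rose) summed to 6402 and 17993 CPM in Tet2 mutant replicates 2 and 3, against 1152 to 5227 CPM in the wild type. Of 9 monocyte markers 3 rose and 1 fell. No neutrophil, erythroid, cycling or muscle marker passed, with 2, 1, 2 and 0 markers lower and 0 higher at an unadjusted p under 0.05. Erythroid markers summed to 17298 and 2459 CPM in the mutant libraries, against 8513 to 20830 CPM, and those of cycling cells to 1474 and 399 CPM, against 1669 to 2218 CPM. Muscle markers summed to 2.77 and 20.0 CPM, against 3.16 to 3.91 CPM, with Myh6 at 0 in every library and Myh7 at 0 in both mutant libraries. The part of these markers' cells in the levels of the respiratory chain genes was not tested.

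Promoters are printed to show what the start regions of members that rose and of members that did not hold: from each complex, the riser with the smallest p and the tested gene with the lowest fold change, among genes with 1 start in the table. The genes were chosen after their values were seen. They are Ndufs3 and Ndufv1 of complex I, Sdhb and Sdha of complex II, Uqcr10 and Uqcrc1 of complex III, and Atp5k and Atp5b of complex V; Cox7a2l and Cox7a1 of complex IV are described only in words. RefSeq's table for GRCm38.p6, 300 bases from 250 before to 50 after the start, held 69 of the 84 members. The windows lie at chr2:90904672-90904971, minus strand, chr19:4012706-4013005, minus strand, chr4:140961021-140961320, plus strand, chr13:74350191-74350490, minus strand, chr11:4704295-4704594, minus strand, chr9:108936398-108936697, plus strand, chr5:108434350-108434649, minus strand, and chr10:128083057-128083356, plus strand. Each is written 5′ to 3′ along the gene, and capitals mark matches, on either strand, to 1 of 7 motifs named after factors known to bind at such genes.
Ndufs3 promoter: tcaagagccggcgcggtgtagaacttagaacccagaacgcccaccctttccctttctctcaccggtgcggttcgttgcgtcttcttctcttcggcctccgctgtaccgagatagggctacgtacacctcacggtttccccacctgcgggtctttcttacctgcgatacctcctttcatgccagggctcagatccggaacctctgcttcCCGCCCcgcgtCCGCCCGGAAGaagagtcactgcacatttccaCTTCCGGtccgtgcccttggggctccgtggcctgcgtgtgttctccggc
Ndufv1 promoter: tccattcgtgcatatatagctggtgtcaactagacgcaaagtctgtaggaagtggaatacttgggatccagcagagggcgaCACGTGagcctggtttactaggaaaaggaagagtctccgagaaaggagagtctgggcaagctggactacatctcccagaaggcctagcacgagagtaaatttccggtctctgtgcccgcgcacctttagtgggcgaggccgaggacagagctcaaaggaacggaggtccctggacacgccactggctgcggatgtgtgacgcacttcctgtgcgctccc
Sdhb promoter: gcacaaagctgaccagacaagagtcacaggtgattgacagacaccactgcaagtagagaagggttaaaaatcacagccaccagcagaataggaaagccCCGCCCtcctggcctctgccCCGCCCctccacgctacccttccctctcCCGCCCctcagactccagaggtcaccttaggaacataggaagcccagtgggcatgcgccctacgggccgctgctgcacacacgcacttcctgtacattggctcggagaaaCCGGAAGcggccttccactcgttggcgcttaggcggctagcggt
Sdha promoter: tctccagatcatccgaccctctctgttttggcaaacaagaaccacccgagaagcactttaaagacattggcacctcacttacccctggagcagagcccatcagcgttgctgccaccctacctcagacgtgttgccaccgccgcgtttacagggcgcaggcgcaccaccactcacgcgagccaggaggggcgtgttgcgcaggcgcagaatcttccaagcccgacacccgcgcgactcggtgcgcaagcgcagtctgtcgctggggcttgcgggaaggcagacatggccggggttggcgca
Uqcr10 promoter: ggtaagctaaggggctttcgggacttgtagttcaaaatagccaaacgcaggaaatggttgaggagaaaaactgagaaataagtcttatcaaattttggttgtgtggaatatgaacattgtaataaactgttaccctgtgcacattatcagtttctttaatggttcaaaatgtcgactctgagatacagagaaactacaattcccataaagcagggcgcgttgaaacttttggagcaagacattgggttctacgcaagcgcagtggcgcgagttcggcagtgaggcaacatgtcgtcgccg
Uqcrc1 promoter: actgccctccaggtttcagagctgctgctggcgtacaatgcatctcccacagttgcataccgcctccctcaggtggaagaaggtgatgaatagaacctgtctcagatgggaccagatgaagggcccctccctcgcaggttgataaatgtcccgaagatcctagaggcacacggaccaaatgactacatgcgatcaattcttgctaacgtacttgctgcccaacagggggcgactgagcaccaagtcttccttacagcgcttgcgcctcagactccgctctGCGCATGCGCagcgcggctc
Atp5k promoter: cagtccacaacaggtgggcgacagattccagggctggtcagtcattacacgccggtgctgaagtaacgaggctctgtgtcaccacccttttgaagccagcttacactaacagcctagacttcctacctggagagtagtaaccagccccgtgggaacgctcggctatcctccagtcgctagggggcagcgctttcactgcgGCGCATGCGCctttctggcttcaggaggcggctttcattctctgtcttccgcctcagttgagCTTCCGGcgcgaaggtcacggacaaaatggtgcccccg
Atp5b promoter: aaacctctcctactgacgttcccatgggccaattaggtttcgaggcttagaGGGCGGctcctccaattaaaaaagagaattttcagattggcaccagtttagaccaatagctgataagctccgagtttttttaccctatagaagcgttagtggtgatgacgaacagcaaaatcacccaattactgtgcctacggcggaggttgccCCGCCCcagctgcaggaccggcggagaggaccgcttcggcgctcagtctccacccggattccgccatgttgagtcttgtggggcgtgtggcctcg
Ndufs3 holds GC boxes 42 and 31 bases before the start and ETS motifs, 1 of which, 27 bases before the start, overlaps the nearer GC box, while Ndufv1 holds an E-box 169 bases before the start. Sdhb holds 3 GC boxes, 152, 132 and 104 bases before the start, and an ETS motif just after it, while Sdha holds none of the 7 motifs. In complex III it is Uqcr10, which rose, that holds none of them, while Uqcrc1, which did not pass, holds overlapping NRF1 motifs on both strands after the start. Atp5k holds NRF1 motifs on both strands, overlapping, from 50 bases before the start, and an ETS motif after it, while Atp5b holds GC boxes 199 and 45 bases before the start. Cox7a2l holds GC boxes 22 bases before the start and just after it, and Cox7a1 none of the motifs. Motifs thus stood before or after the start in genes of both kinds.

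Over all promoters, the ETS motif (CCGGAAG), the core bound by GABP, occurred in 17 of 69 members (24.6%), against 9.93% of 27025 genes in the table. The NRF1 motif (GCGCATGCG) occurred in 8 members (11.6%, against 1.95%) and the YY1 motif (AAGATGGCG) in 7 (10.1%, against 1.64%). The CRE (TGACGTCA) occurred in 4 members (5.80%, against 2.03%) and the ERR motif (TCAAGGTCA) in 2 (2.90%, against 0.466%). The GC box (GGGCGG) occurred in 42.0% of members, against 38.2% of all genes, and the E-box (CACGTG) in 8.70%, against 8.09%. Among members that rose, 8 of 27 held the ETS motif, 4 the NRF1 motif and 5 the YY1 motif. Among tested members that did not pass, 9 of 40 held the ETS motif, 4 the NRF1 motif and 2 the YY1 motif. The genes in the table were not limited to those tested here, while nearly all members were tested, so the shares compare unlike sets. A match is a description of the letters and was not tested as a site.

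Some counts are uncertain in themselves. Exons of 29 members overlap those of another gene in GENCODE M21, and without the strand setting their reads cannot be assigned. For 10 members the files also list pseudogene symbols, among them Cox5b, Atp5k and Atp5c1, whose reads may have been divided in the counting.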

How the data were processed

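The authors deposited gene counts, 1 file per library with 55291 gene symbols, for 2 Tet2 mutant and 3 wild-type libraries. Per the labels' protocols, libraries were prepared from 1.3 ug of total RNA with a SMARTer kit for mRNA, with no molecular identifiers named. Per the submitters' processing notes, Trimmomatic and STAR were used with mm10. No source used here gives the versions, the counter, its annotation or its strand setting.

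The analysis of the counts used edgeR 4.0.16, DESeq2 1.42.0 and limma 3.58.1 in R 4.3.3. filterByExpr kept 17062 genes, libraries were scaled by TMM, and edgeR's quasi-likelihood test compared the genotypes, with p-values adjusted over all tested genes by the Benjamini-Hochberg method and a threshold of 0.05. SE values are the size of the fold change over the square root of F, and the biological coefficient of variation common to all genes was 0.507. SE and floors cover the spread between libraries and counting error only, since amplified reads are not independent molecules. Of the tested symbols 16903 matched GENCODE M21 (GRCm38), 199 of them through a RefSeq synonym; 13492 were protein-coding.

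Members, gene lists and alternatives were chosen with earlier results of these data known. Named members are the core subunits, up to 6 called genes with the smallest p per complex, the highest and lowest fold change per complex, isoforms and genes that are not subunits; from each list up to 3 called genes with the smallest p are named, or 2 where none was called. Other members are given by range, and 1 member is not reported here. The genotypes share replicate numbers 2 and 3, which the test did not use. Alternatives were fits with each library left out, other scaling, other filters and tests, a replicate block, and 2 corrections for transcript length chosen after the data were seen. In the first the level was fitted against length by lowess (span 0.3) in each library over protein-coding genes and centred; in the second, which was tried before the other, the fit was robust, over all tested genes and not centred.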

Additional observations from a re-analysis of the deposited data

How the results depend on the processing

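Of the 27 calls, all 27 were shared by DESeq2's size factors in edgeR (29 members higher, background 11.1%), by the DESeq2 test (36, 17.4%) and by the fit with no filter (36, 9.98%); 25 were shared by limma-voom (28, 10.8%), 22 by a filter of 1 CPM in 3 libraries (22, 11.3%) and 17 by upper-quartile scaling. With plain library totals 10 members changed (8 higher), with the length trend removed 2, with the robust length fit 46 (background 17.1%) and with the replicate block 1, Ndufa3 (1.23%, under the background of 4.41%); leaving out 1 library gave 5 to 53. The robust length fit moved the median of all genes by 0.36; the Spearman correlation of fold change with length was then -0.094, against -0.20 as reported, over all protein-coding genes, and -0.45, against -0.29, over the members. Over all genes the count was 2556 as reported, 4058 with plain totals, 4557 with no filter, 5109 with DESeq2, 984 with the replicate block and 639 to 10395 without 1 library. Deviations from the genotype mean of libraries that share a replicate number had correlations of -0.027 and -0.024. With 2 mutant libraries their deviations mirror each other, so these values cannot decide whether the numbers mark a shared batch.

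The differences of the log2 sums were 0.589, 0.185, 0.178 and 0.0214 for complexes I, II, III and V with upper-quartile scaling, and 0.362, -0.042, -0.0494, 0.508 and -0.206 for complexes I to V with plain totals. With the length trend removed they were 0.309, 0.171, 0.0439, 0.295 and 0.0382. With Ndufa4 counted with complex IV they were 0.894 for complex I and 0.993 for complex IV. Without 1 library they ranged from 0.771 (without Tet2 mutant replicate 2) to 1.14 (without wild-type replicate 2) for complex I, from 0.189 to 0.769 for complex II (without Tet2 mutant replicates 2 and 3), from 0.334 to 0.708 for complex III (without Tet2 mutant replicate 2 and wild-type replicate 2), from 0.744 to 1.31 for complex IV and from 0.116 to 0.553 for complex V.

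Some members turned sign. With the length trend removed the log2 fold changes were 0.0504 for Atp5a1, -0.123 for Atp5e, -0.0999 for Cox4i1, -0.00871 for Cox6b2, 0.134 for Sdha, -0.000678 for Sdhd and -0.234 for Uqcrc1, and with the robust length fit 0.309 for Atp5a1, 0.0967 for Atp5b, 0.224 for Atp5mpl, 0.361 for Sdha and 0.0402 for Sdhc. Atp5mpl was at 0.0114 and Cox6b2 at -1.82 with limma-voom, Cox6b2 at -1.12 and Uqcrc1 at -0.0345 with the replicate block, Uqcrc1 at -0.219 with upper-quartile scaling, and Uqcrc1 at -0.448 and Sdhd at -0.00138 with plain totals. Without 1 library the ranges were -0.382 to 0.205 for Atp5a1, -0.197 to 0.141 for Atp5b, -1.17 to 0.469 for Atp5mpl, -3.57 to 1.70 for Cox6b2, -0.749 to 0.110 for Ndufv1, -0.107 to 0.0957 for Sdha, -0.811 to 0.268 for Sdhc and -0.0383 to 0.285 for Uqcrc1. The cause of these turns was not tested. Tet2 mutant replicate 2 had the lowest total, and levels under 3 counts are not separable from 0.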
